A study of Caenorhabditis elegans with 2 samples.

Results

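The genes examined here encode the replication clamp (pcn-1), the 6 subunits of the replicative helicase (mcm-2, mcm-3, mcm-4, mcm-5, mcm-6 and mcm-7) and 2 subunits of replication protein A, the single-strand DNA binding complex (rpa-1 and rpa-2). They were chosen by name, and all 9 were found among the 19973 protein-coding genes that the Ensembl WBcel235 annotation places on the 6 nuclear chromosomes of Caenorhabditis elegans. For each gene, every FKH-4 peak summit from 5 kb upstream of the annotated gene start to the gene end was read. FKH-4 is a forkhead-family transcription factor, and its binding was measured by chromatin immunoprecipitation and sequencing (ChIP-seq) with an antibody against GFP. Both samples, biological replicates 1 and 2, were whole hermaphrodite L1 larvae of strain OP100, genotype unc-119(tm4063) III; wgIs100, collected 6 h after synchronisation by starvation following bleaching. The strain is 1 transgenic line that expresses FKH-4 with a C-terminal GFP-FLAG tag, both samples carry the unc-119 mutation, and the control experiment named in the labels was not analysed here.

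PCNA, the product of pcn-1, is a ring that slides along DNA and holds the replicative polymerases on their template. The MCM2-7 ring is loaded onto origins before S phase and then unwinds the double helix, and replication protein A coats the single strands that it exposes. In animals, E2F transcription factors are known to drive these genes as cells enter S phase. In C. elegans, larvae that hatch without food stop their post-embryonic divisions, and feeding restarts them.

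Of the 9 genes, pcn-1 and rpa-2 had a summit in the peak set that the authors kept as reproducible by IDR (irreproducible discovery rate), and the other 7 had none. Both summits lay in the promoter window, here the 1000 bp before and 200 bp after the transcription start site (TSS) of any coding transcript. The count was therefore 2 of 9 (22.2%) for the region from 5 kb upstream to the gene end, where 10.2% of all coding genes had an IDR summit, and 2 of 9 for the promoter window, where 4.77% had one. Among the 12809 coding genes whose regions were as long as those of the 9 genes (6067 to 10117 bp), the shares were 9.15% and 4.23%. With 9 genes, each gene is worth 11.1 percentage points, so the shares of the 9 rest on 2 genes and no test was made of them.

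The clamp gene pcn-1 carried the strongest FKH-4 summit of the 9 genes in every list. It lies on chromosome IV (4047937 to 4049448, minus strand, ce11), with 1 annotated coding transcript. The IDR summit was at 4049732, 284 bp upstream of the gene start, in the 557 bp that separate pcn-1 from the next gene, wrt-5, and in no coding gene. No other coding gene's promoter window held it. Its signal, a value given by the authors for each peak that can be compared only within a list, was 187, which ranked 95 of 1189 in the IDR set. In replicate 1 the summit was 286 bp upstream with a signal of 93.1, rank 60 of 30000. In replicate 2 it was 275 bp upstream with a signal of 92.8, rank 162 of 22442. The summits of the replicates were 11 bp apart, and each lay far above the rest of the pcn-1 region, where the next strongest summit ranked 12636 in replicate 1 and 6709 in replicate 2. A second pair of summits, 7 bp apart, lay 2058 and 2051 bp upstream in a coding exon of wrt-5, at ranks 29130 and 10448. The 250 bases below run from 334 to 85 bp upstream of the pcn-1 start, on the gene's strand, and are shown because they hold the summit (the 51st base) and, in capitals, the only E2F-type word of the pcn-1 promoter (chrIV:4049533-4049782, minus strand, RefSeq WBcel235).
pcn-1: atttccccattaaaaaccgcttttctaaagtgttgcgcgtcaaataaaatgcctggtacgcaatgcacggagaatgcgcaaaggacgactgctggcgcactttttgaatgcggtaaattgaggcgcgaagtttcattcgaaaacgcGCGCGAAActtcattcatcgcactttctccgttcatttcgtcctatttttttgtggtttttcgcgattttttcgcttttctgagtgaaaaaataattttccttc

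The gene for the second RPA subunit, rpa-2, carried the other IDR summit. It lies on chromosome I (4770292 to 4771358, plus strand), and the summit at 4769690 was 602 bp upstream of its start, in no coding gene and in no other coding gene's promoter window. The signal was 88.1 and the rank 506 of 1189 in the IDR set. In replicate 1 the summit had a signal of 52.5 and rank 245. In replicate 2 it lay 18 bp away with a signal of 33.1 and rank 1106, so that rpa-2 stood near the end of the 1189 strongest peaks there. Only 594 peaks taken from the top of replicate 2 would leave it out. The promoter of rpa-2 faces kin-35 across 4978 bp, and a narrower promoter window, 500 bp before to 100 bp after a TSS, left the summit out. The large subunit gene rpa-1 (II, 7664582 to 7667110, plus strand) had no IDR summit. Its promoter held a summit in replicate 2, 102 bp upstream with a signal of 10.5 and rank 16388, and none in replicate 1. A stronger summit of replicate 2, 2243 bp upstream (signal 18.5, rank 3351), lay in an intron of alfa-1. Replicate 1 had 1 summit in the rpa-1 region, 2727 bp upstream in a coding exon of alfa-1, at rank 29355 of 30000.

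None of the 6 helicase subunit genes had an IDR summit. The IDR set holds the 1189 strongest pooled peaks, so pooled signals in their regions were necessarily below its lowest signal, 51.7. Together with rpa-1, these 7 genes had strongest pooled signals from 18.1 to 37.0. The highest belonged to mcm-2 (II, 12001509 to 12006625, minus strand), at 341 bp upstream of the gene start, with a pooled signal of 37.0 and rank 2340 of 30000. Both replicates had a summit there, 25 bp apart: replicate 1 at 349 bp upstream (signal 20.1, rank 2448) and replicate 2 at 324 bp upstream (signal 15.6, rank 5376). A second summit of both replicates, 2 bp apart, lay in an intron of mcm-2, 4567 bp downstream of its start in replicate 1 (rank 3537) and 4569 bp in replicate 2 (rank 7201). The strongest summit of replicate 2 in the region, 4019 bp upstream in an intron of glb-29 (signal 20.8, rank 2578), had no partner in replicate 1.

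At mcm-7 (V, 4347166 to 4349768, plus strand) the replicates also had summits in the promoter, but of unlike strength and 132 bp apart. Replicate 1 was 270 bp upstream with a signal of 20.8 and rank 2119, and replicate 2 was 138 bp upstream with a signal of 9.55 and rank 20461 of 22442. The pooled summit lay between them, 183 bp upstream, at rank 7266. The strongest summit of replicate 2 in the region was another one, 710 bp upstream (signal 14.3, rank 6861), in the 740 bp shared with the divergent gene hpo-18. A further pair, 149 bp apart, lay in an intron of figl-1, at ranks 9845 and 11337, so both pairs lay among the weaker peaks in at least 1 replicate. In the remaining 4 helicase genes no summit of replicate 1 had one of replicate 2 within 200 bp.

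At mcm-3 (V, 15056719 to 15059599, minus strand) replicate 1 had its strongest summit 1493 bp upstream, in a coding exon of C25D7.15 (signal 22.4, rank 1635), and replicate 2 had its only summit 2112 bp upstream (signal 12.5, rank 10259), in a UTR of rap-2. Neither lay in the promoter window of mcm-3. At mcm-4 (I, 2318291 to 2321817, minus strand) replicate 1 had a summit 546 bp upstream (signal 15.9, rank 6546), in the neighbouring gene Y39G10AR.32, and replicate 2 had one 53 bp upstream (signal 11.5, rank 12774). The strongest pooled summit of mcm-4, 1773 bp upstream with a signal of 18.1 and rank 22116, was the weakest such value of the 9 genes. At mcm-5 (III, 4288264 to 4291266, minus strand) the strongest summit of replicate 1 was 1053 bp upstream in an intron of nth-1 (signal 18.2, rank 3723), and that of replicate 2 was 212 bp upstream (signal 12.6, rank 10084). The mcm-6 gene (III, 9794367 to 9798644, plus strand) had summits only inside its own body. Replicate 1 had the stronger one 1112 bp downstream of the start (signal 17.1, rank 4936), in an intron that also holds a coding exon of srxa-10. The second summit of replicate 1, 2370 bp downstream (signal 9.69), lay in the promoter window of an internal TSS of mcm-6. Replicate 2 had 1 summit, 3415 bp downstream in a coding exon (signal 9.93, rank 18501).

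**Figure D1:**
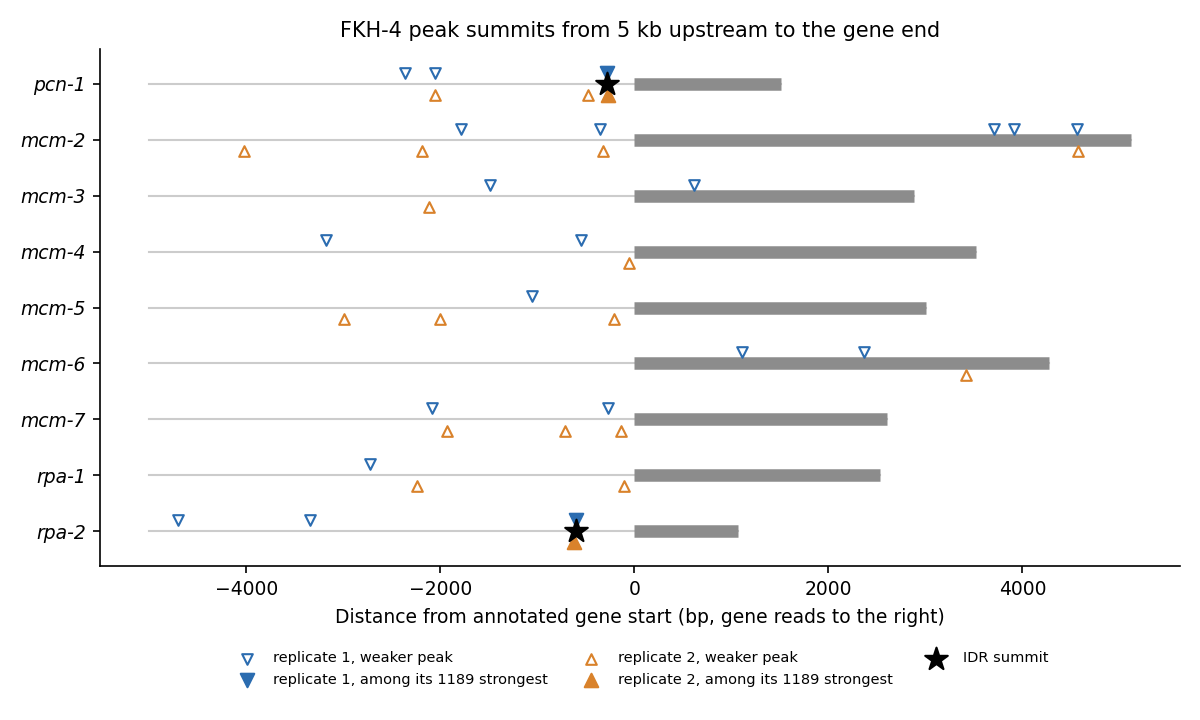
Position of every replicate summit (triangles) and IDR summit (stars) relative to the annotated gene start of the 9 genes, in bp, with gene bodies as grey bars and the 5 kb upstream as thin lines. Filled triangles, peaks among the 1189 strongest of a replicate, occur only at pcn-1 and rpa-2. In replicates 1 and 2 they lie 286 and 275 bp upstream of pcn-1, and 603 and 621 bp upstream of rpa-2.

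The replicates were alike in placing pcn-1 first and rpa-2 second, and differed in the order of the other genes. In replicate 1 the third to ninth places by strongest summit were held by mcm-3, mcm-7, mcm-2, mcm-5, mcm-6, mcm-4 and rpa-1, and in replicate 2 by mcm-2, rpa-1, mcm-7, mcm-5, mcm-3, mcm-4 and mcm-6. These places compare the strongest summit of each replicate, which was not at the same site in both: at mcm-2 it was 349 bp upstream in replicate 1 and 4019 bp in replicate 2, and at rpa-1 2727 and 2243 bp. An order among these 7 genes was therefore not resolved by 2 replicates. A summit among the 1189 strongest peaks of each replicate was found at 2 of the 9 genes, again pcn-1 and rpa-2, and at 7.38% of all coding genes.

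Presence in a relaxed list carried little information. These lists were made as input to the IDR step and hold weak peaks by design. All 9 genes had a summit in their region in replicate 1 and all 9 in replicate 2, where 86.3% and 74.2% of all coding genes had one. A pair of summits of the replicates within 200 bp was found in the regions of pcn-1, mcm-2, mcm-7 and rpa-2, 4 of 9 (44.4%), a share close to the 43.8% of all coding genes. Each of these 4 genes had such a pair in its promoter window, where 16.1% of all coding genes had one. Among the 5000 strongest peaks of each replicate the pairs of mcm-2 and mcm-7 were lost, which left pcn-1 and rpa-2. Of all coding genes, 14.1% had such a pair in their region.

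**Figure D2:**
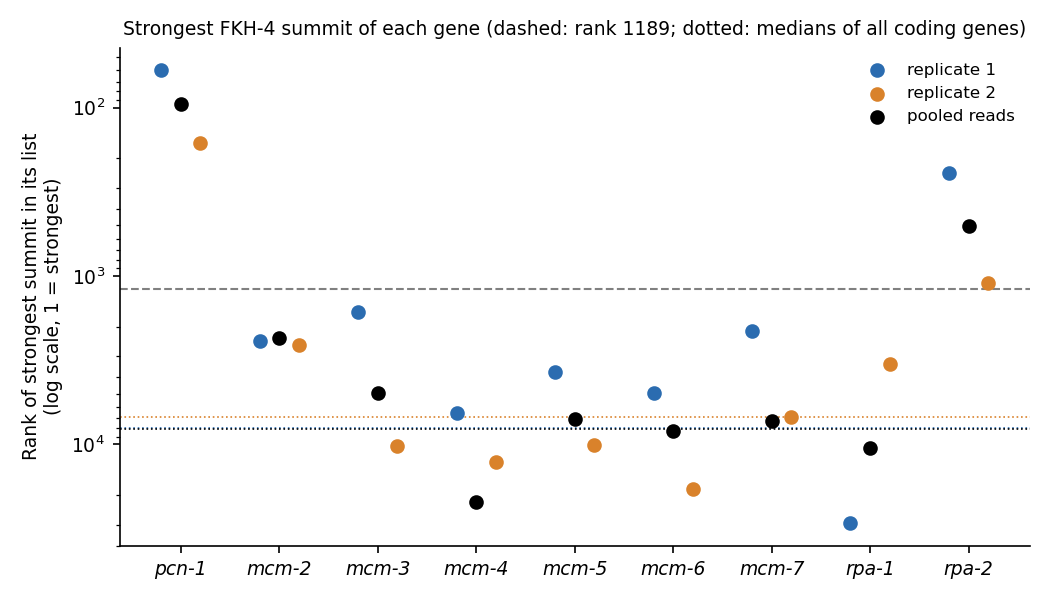
Rank of the strongest summit from 5 kb upstream to the gene end in replicate 1, replicate 2 and the pooled list for each gene, on a log axis with rank 1 at the top; the dashed line is rank 1189 and the dotted lines are the medians of all coding genes with a summit. Only pcn-1 and rpa-2 lie above the dashed line in all 3 lists, and for the pooled list this restates the IDR call. At the other genes the strongest summits of the replicates can be at different sites, and the lists differ in length (30000 and 22442 peaks).

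Set among all coding genes by the strongest pooled summit in the region, pcn-1 was within the top 1.05% and rpa-2 within the top 4.86%. The other genes stood at 17.5% (mcm-2), 29.9% (mcm-3), 38.4% (mcm-5), 39.0% (mcm-7), 43.1% (mcm-6), 49.7% (rpa-1) and 74.4% (mcm-4). The median of the 9 genes was rank 7094, against 8055 for the 16800 coding genes that had a pooled summit. By list, the median was rank 2448 against 8038 for the 17239 coding genes with a summit in replicate 1. There, 8 of 9 genes were at or above the latter median. In replicate 2 it was rank 6861 against 6909 for the 14813 coding genes with a summit, and 5 of 9 were at or above the latter. Among all 19973 coding genes, with or without a summit, the helicase genes stood at 12.7% (mcm-3) to 37.4% (mcm-4) in replicate 1. In replicate 2 they stood at 19.0% (mcm-2) to 67.6% (mcm-6), with mcm-5 at 47.8%, mcm-3 at 48.3% and mcm-4 at 54.9%. The cause of this difference between the replicates was not tested.

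**Figure D3:**
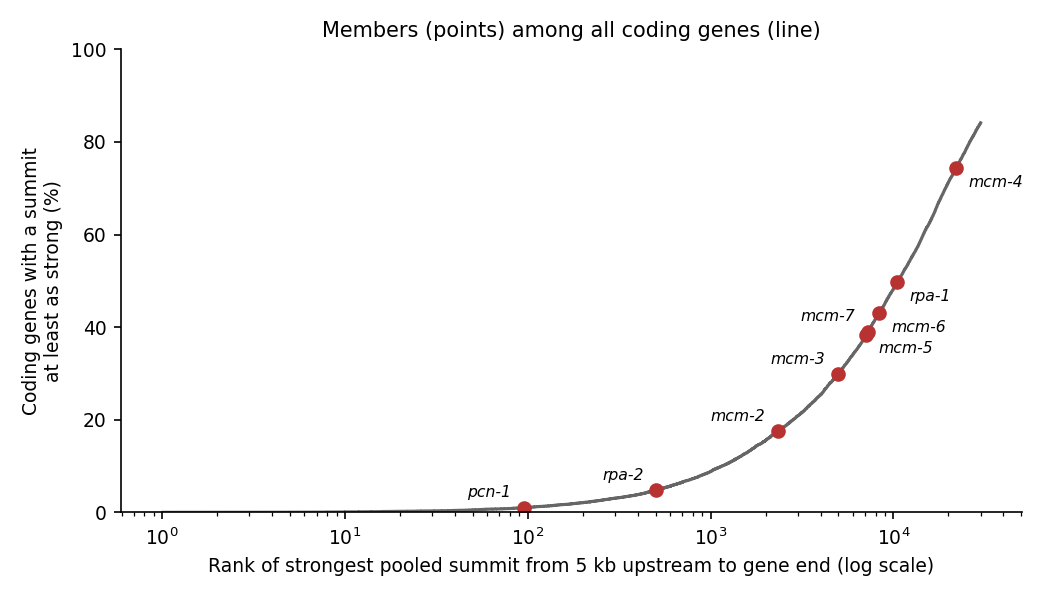
Share of all 19973 coding genes (line) whose strongest pooled summit from 5 kb upstream to the gene end is at least as strong as the rank on the log x axis, with the 9 genes as points. The points for pcn-1 (1.05%) and rpa-2 (4.86%) stand at the lower left, and 6 of the other genes lie between 17.5% and 49.7%, with mcm-4 at 74.4%.

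The promoters were then searched for words known from factors of the cell cycle, in the 300 bases from 250 before to 50 after each annotated gene start, on both strands. E2F-type words, here TTTCCCGC, TTTGGCGC or TTTCGCGC, were present in 8 of the 9 promoters (88.9%), against 3.54% of all 19973 coding promoters. The promoter of mcm-2 held none. TTTCGCGC alone was in 6 of the 9 (pcn-1, mcm-3, mcm-4, mcm-6, mcm-7 and rpa-2) and in 1.14% of all promoters. Forkhead-type words (GTAAACA, the variant ATAAACA and the looser word TGTTTNC, which includes GTAAACA on the other strand) were in 5 of 9 promoters (55.6%) and in 38.2% of all. The 300 bases searched at pcn-1 and at rpa-2 held no forkhead-type word. Their IDR summits, 284 and 602 bp upstream, lay outside these bases. A match describes the letters in the window and does not show that a factor binds there.

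The E2F-type words of mcm-3, mcm-5, mcm-6, mcm-7 and rpa-1 are shown in capitals with 16 bases on either side, on the strand of the gene. They are shown because such words were in 8 of the 9 promoters, against 3.54% of all coding promoters. GCGCGAAA and GCGCCAAA are TTTCGCGC and TTTGGCGC read on the other strand. The words began 144 bp upstream of the start in mcm-3 (chrV:15059720-15059759), 194 bp in mcm-5 (chrIII:4291437-4291476) and 148 bp in mcm-7 (chrV:4347002-4347041). The mcm-6 promoter had one at 247 bp (chrIII:9794104-9794143) and another at 120 bp (chrIII:9794231-9794270). The rpa-1 promoter had one at 140 bp (chrII:7664426-7664465) and another at 107 bp (chrII:7664459-7664498).
mcm-3: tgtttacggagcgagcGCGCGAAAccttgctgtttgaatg
mcm-5: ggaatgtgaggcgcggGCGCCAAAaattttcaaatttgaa
mcm-6 at 247 bp: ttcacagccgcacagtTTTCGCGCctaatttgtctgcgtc
mcm-6 at 120 bp: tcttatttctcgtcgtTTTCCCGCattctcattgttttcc
mcm-7: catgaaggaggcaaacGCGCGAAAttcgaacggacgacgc
rpa-1 at 140 bp: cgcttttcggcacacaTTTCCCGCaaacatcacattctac
rpa-1 at 107 bp: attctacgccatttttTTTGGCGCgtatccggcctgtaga

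The bases within 50 bp of the pooled promoter summit of mcm-2 (chrII:12006916-12007016, minus strand), the strongest summit of the 9 genes outside the IDR set, are shown for comparison, since they hold neither an E2F-type nor a forkhead-type word and no letter is in capitals.
mcm-2: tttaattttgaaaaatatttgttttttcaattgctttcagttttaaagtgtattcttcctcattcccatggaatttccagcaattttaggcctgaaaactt

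Where a promoter held both, the pooled FKH-4 summit and the E2F-type word did not share one spacing. The mcm-3, mcm-5 and mcm-6 genes had a word but no pooled summit in the promoter window at the gene start. Distances were measured to words in the 300 bases searched, so a nearer word outside them would be missed. The pcn-1 summit was 96 bp from its word and the rpa-2 summit 371 bp from its own. The weak pooled promoter summits were 35 bp from the word at mcm-7, 9 bp at rpa-1 and 174 bp at mcm-4. Within 50 bp on either side of the strongest pooled summit, 1 of the 9 genes had an E2F-type word (mcm-7) and 1 a forkhead-type word (mcm-3). Among all 1189 IDR summits, such windows held an E2F-type word in 3.36% and a forkhead-type word in 15.6%, and among the 30000 pooled summits, the list that holds the mcm-3 and mcm-7 summits, in 1.34% and 11.6%. The windows of pcn-1 and rpa-2 had neither. Their GC content was 47.5% and 57.4%, against a median of 44.6% over all IDR windows. In the genes without an IDR summit it ran from 27.7% (mcm-2) to 49.5% (mcm-4), with mcm-7 at 48.5%. The median over all pooled windows was 37.6%.

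**Figure D4:**
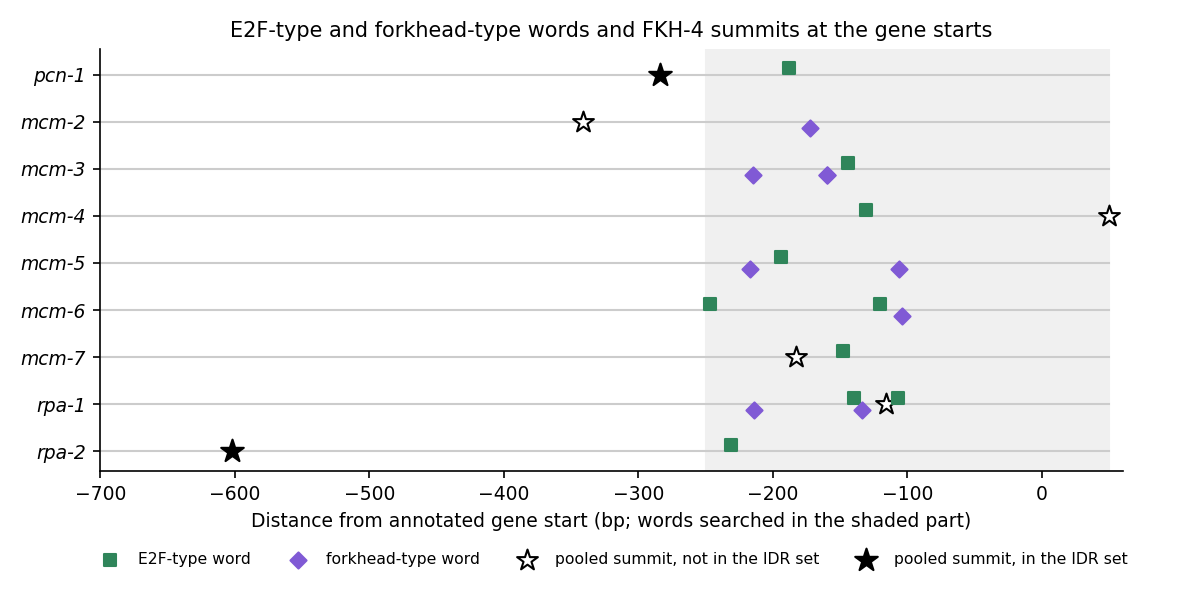
E2F-type words (squares), forkhead-type words (diamonds) and pooled FKH-4 summits (stars; filled where the summit is in the IDR set) around the annotated starts of the 9 genes, in bp, with the searched 300 bases shaded. Squares appear in 8 of the 9 rows, and the filled stars of pcn-1 and rpa-2 lie 284 and 602 bp upstream, outside the shading.

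Some of the other genes of DNA replication had an IDR summit, and most of them had none. Of 68 genes listed by name, 60 were found by that name in the annotation, and the other 8 names (among them cdc-45, pold-1, pold-2 and rfc-5) were not matched to sequence names, so the lists lack core members. In their promoter windows 16 of 60 (26.7%) had an IDR summit, and from 5 kb upstream to the gene end 19 of 60 (31.7%) did, beside the 4.77% and 10.2% of all coding genes. The genes orc-2, pri-1 and rba-1 had one only outside the promoter window, with strongest signals of 150, 113 and 168. The median of their strongest pooled summits was rank 3028.5, against 8055 for the 16800 coding genes with a pooled summit. The lists were chosen with earlier results on this data set known, and no test was made of them. Of the 16 promoter summits, 5 were in the window of 1 coding gene, as those of pcn-1 and rpa-2 were, and 11 were also in the window of another. Sharing was common among all coding genes too: 4.77% had a promoter summit and 2.06% had one in no other gene's window. When a summit counted only for the gene whose TSS was nearest, 10 of the 60 had one, beside 5.38% of all coding genes.

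The strongest of these summits stood at mrt-2 and hpr-9, genes of the checkpoint clamp, a PCNA-like ring that is loaded at damaged DNA. Another gene of this clamp, hus-1, had no IDR summit, and its strongest pooled summit ranked 12756. The mrt-2 summit (III, 11746913) had a signal of 318 and was 125 bp upstream of the TSS. In the IDR set it was therefore stronger than the pcn-1 summit (187). The hpr-9 summit (III, 10621428) had a signal of 302 and lay nearer to the TSS of lron-10. Replicate ranks of listed genes are those of the strongest summit from 5 kb upstream to the gene end, which need not be the promoter summit. They were 44 in replicate 1 and 14 in replicate 2 at mrt-2, and 61 and 17 at hpr-9. In the same list of 12 genes for fork protection and the checkpoint, tim-1 and clsp-1 also had a promoter summit (signals 113 and 102). These summits lay nearer to the TSS of Y75B8A.23 and eef-2, respectively. The genes atl-1, chk-1 and rpa-4, a further gene of the RPA family, had no promoter summit.

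Some of the genes listed for licensing, helicase partners and firing, and clamp loading and Okazaki fragment processing had a promoter summit. Of 9 genes for origin recognition and licensing, mcm-10 (signal 146) and cdc-6, which brings MCM to origins (82.6), had a promoter summit, and cdt-1 and gmn-1 did not. In the mcm-10 region the strongest summits ranked 215 in replicate 1 and 163 in replicate 2. In the cdc-6 region they ranked 298 and 894. The cdc-6 summit lay nearer to the TSS of acin-1, and the mcm-10 summit was also in the promoter window of teg-1. Of 10 genes for partners of the helicase and origin firing, ctf-4 (signal 102) and the kinase gene cdc-7 (94.2) had a promoter summit. The ctf-4 summit lay nearer to the TSS of eef-1G. The GINS genes psf-1, psf-2, psf-3 and sld-5 had no promoter summit. Among 9 genes for clamp loading and Okazaki fragment processing, the clamp loader genes rfc-2 (signal 71.3) and rfc-4 (63.3) and the RNase H gene rnh-2 (54.0) had one. The strongest summits of the replicates in the region were unlike at rfc-2, with rank 16651 in replicate 1 and 323 in replicate 2. The same held at rnh-2, with ranks 7058 and 750. The rnh-2 region held a pair of replicate summits within 200 bp and the rfc-2 region held none. The rfc-4 summit was also in the promoter window of eef-1A.1. The ligase gene lig-1 and the flap nuclease gene crn-1 had no promoter summit.

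Among 8 polymerase and primase genes, pole-1 (signal 87.9), pri-2 (70.4) and polh-1 (57.3) had a promoter summit. The polh-1 summit was also in the promoter window of rps-22, and the pri-2 summit in that of W02D9.2. Among 7 genes for topoisomerases and chromatin assembly, top-2 (99.2) and chaf-2 (98.2) had a promoter summit. The top-2 summit lay nearer to the TSS of npp-3, and the chaf-2 summit was also in the promoter window of Y71G12B.30. None of the 5 genes for nucleotide supply had a promoter summit, among them the ribonucleotide reductase genes rnr-1 and rnr-2. E2F-type words were in 21 of the 60 promoters (35.0%), and 8 of those 21 (38.1%) had a promoter IDR summit, against 8 of the 39 without a word (20.5%), a description with no test.

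**Figure D5:**
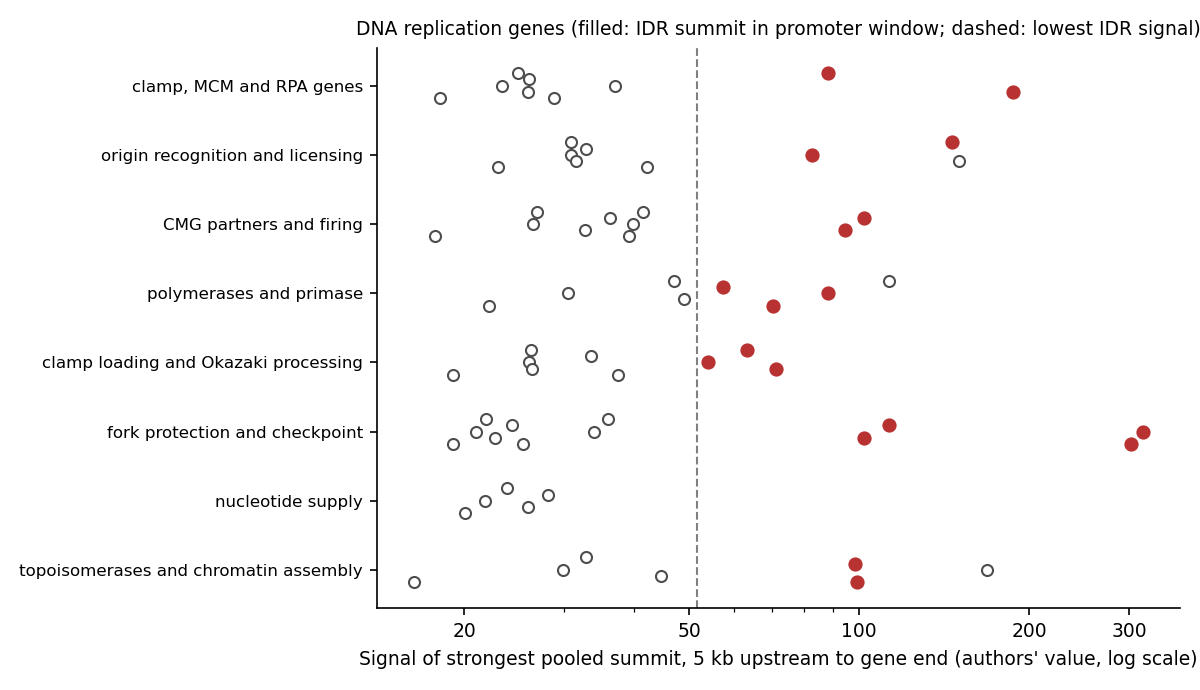
Signal of the strongest pooled summit from 5 kb upstream to the gene end (authors' value, log axis) for the 9 genes in the top row and the 60 other DNA replication genes by list; filled points have an IDR summit in the promoter window and the dashed line is the lowest IDR signal, 51.7. In the top row 2 points lie right of the line and 7 lie between 18.1 and 37.0. The IDR peaks are the strongest pooled ones, so the side of the line restates the IDR call.

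Some limits apply to these values. The read depth behind each list is unknown here, so a gene without an IDR summit had none detectable at the depth of these libraries. The larvae were taken whole, so that strong binding in few cells and weak binding in many cannot be told apart. Many worm genes are trans-spliced, and the annotated start can then lie downstream of the true one. A summit in a gene's window does not show that it acts on that gene.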

How the data were processed

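Per the deposited sample listings, each replicate's relaxed peak list came from its own alignment and 1 further file used for every list, the pooled list from both alignments, and the IDR set from these 3 lists. No aligner, peak caller or IDR threshold was named in the listings or file headers. The signal value of each peak is the authors' own, with no stated normalisation, and was compared only within a list or between the IDR set and the pooled list, which give the IDR peaks the same values. The −log10 q values that the authors deposited ran from 0.0176 to 3.35 over the lists and entered no call. The ce11 lists were used, with 1189 (IDR), 30000 (pooled), 30000 (replicate 1) and 22442 (replicate 2) peaks; the ce10 lists were not used. All 1189 IDR peaks were the strongest pooled ones.

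Positions are counted from 1. Genes came from the Ensembl release 115 annotation of WBcel235, and sequences from the RefSeq copy of that assembly, in which no deposited ce11 peak ends beyond a chromosome. Calls were computed in Python 3.11.15 with pandas 2.3.3 for every coding gene and were checked on constructed peaks. The 2 samples form 1 group, so no test between groups exists and none was run. Settings varied were the reach, promoter window, gene assignment, number of peaks, match distance and word window, and each replicate was left out by taking the 1189 strongest peaks of the other. The genes and lists were chosen with earlier results of these data known. Genes named are the 9 members, genes sharing or nearest to their IDR summits, and, of each list, up to 6 members with promoter IDR summits. Neighbours of the members and listed genes without a promoter summit were named in addition, after their values were seen. The same holds for genes sharing or nearest to the promoter summits of listed genes.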

Additional observations from a re-analysis of the deposited data

How the results depend on the processing

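The IDR calls at pcn-1 and rpa-2 held under most settings, but some of these settings could not have removed them. Their summits, 284 and 602 bp upstream, lie within every reach used. Their ranks, 95 and 506, are within the 594 strongest IDR peaks. From 5 kb upstream to the gene end, the count was 2 of 9 at a reach of 1, 2 or 10 kb. The shares of all coding genes there were 5.74%, 7.09% and 14.9%. The count was also 2 among the 594 strongest IDR peaks (5.6% of all coding genes), and without replicate 1 (10.4%) or 2 (10.1%). It was 3 when a peak only had to overlap the region, which added mcm-6, beside 10.7% of all coding genes. In the promoter window it was 1, pcn-1, with 500 bp before to 100 bp after the TSS (3.77% of all coding genes). Without replicate 1 or 2 it was 2 of 9 (4.88% and 4.52%). Pairs of replicate summits were found at 3 genes with a match distance of 100 bp, without mcm-7, and at 2 among the 5000 strongest peaks. The shares of all coding genes with such pairs were 37.0% and 14.1%. When the 594 top peaks were taken from each replicate in place of 1189, 1 gene, pcn-1, had one in both, beside 4.25% of all coding genes. Among the 60 other replication genes, 16 with a promoter summit became 10 by the nearest TSS and 5 when only summits in 1 gene's window counted, an alternative chosen after seeing the data. The shares of all coding genes under these settings were 4.77%, 5.38% and 2.06%. The 16 ranged from 13 to 19 with a replicate left out, beside 4.52% and 4.88% of all coding genes. Over the longer region 19 became 15 to 22 (10.1% and 10.4% of all coding genes), and 14 among the 594 strongest IDR peaks (5.6%). With 100 bp on either side of the summit, E2F-type words were found at 2 genes instead of 1 (mcm-4 was added). Such wider windows held a word at 5.13% of all IDR summits and 2.57% of all pooled summits, against 3.36% and 1.34% with 50 bp. The cause of these shifts was not tested.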

Other observations

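The 7 genes without an IDR summit lay at unlike distances from the nearest one, counted from the gene start. The mcm-6 gene came closest: a summit at 9798773 on chromosome III (signal 60.4) lay 129 bp past its end and 334 bp from the TSS of ZK632.2. For mcm-5 the nearest was 8857 bp away, for mcm-3 11826 bp, near unc-76, for rpa-1 22184 bp, near pde-4, and for mcm-2 26353 bp, near ash-2. The mcm-4 and mcm-7 genes stood in longer stretches without IDR summits, at 63366 and 149180 bp. The median distance from a gene start to the nearest IDR summit was 11826 bp for the 9 genes and 33123 bp for all coding genes. The 9 genes include pcn-1 and rpa-2, at 284 and 602 bp, so their median does not describe the 7 genes alone.

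Over all coding genes, 68 of the 708 promoters with an E2F-type word (9.60%) had an IDR summit in the promoter window, against 885 of the 19265 without (4.59%), a description with no test. The remaining words gave these counts. The word TTTGAA, the core of the cell cycle element CHR, was in 8 of the 9 promoters and in 62.5% of all. The word bound by GATA factors, GATAAG, was in 0 of 9 and in 16.7% of all, and the repeat GAGAGA was in 3 of 9 and in 21.8% of all.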
